A study of Mus musculus with 24 samples.

Results

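The junctional zone and glycogen storage genes described here are 9 genes picked by name from the 55401 genes of the count table: *Tpbpa*, *Tpbpb*, *Pcdh12*, *Gjb5* and *Aldh1a3*, which mark cells of the junctional zone, and *Gys1*, *Gbe1*, *Ugp2* and *Pygl*, which encode enzymes of glycogen metabolism. No measured value entered the choice, although it was made with earlier results of these data known. The genes were followed in the maternal-fetal interface (MFI) of pregnant C57BL/6 mice at 4 stages from gd10.5 to gd19.5 (with gd14.5 and then gd16.5 in between), where gd counts days of gestation from the vaginal plug, taken as day 0.5. At each stage there were 3 libraries from wild-type (WT) mice and 3 from C1qtnf6-KO (KO) mice, which makes 24 libraries in 8 groups of 3. The KO mice are homozygous for a CRISPR-Cas9 deletion of exons of *C1qtnf6*, obtained as 1 commercial strain (C57BL/6JCya), and they lack the secreted protein CTRP6. The labels call the tissue MFI, which joins maternal decidua and fetal placenta, while the methods speak of placentae. The labels name no dam, litter, animal age or date, so p-values measure the spread between these libraries, some of which may share a mother.

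The junctional zone lies between the labyrinth, where nutrients pass from mother to fetus, and the maternal decidua. It is built of spongiotrophoblast cells, which secrete hormones of the prolactin and pregnancy-specific glycoprotein families, and of glycogen trophoblast cells, which store glycogen, appear in the zone around midgestation and later spread into the decidua. Glycogen is made from UDP-glucose, which UGP2 supplies. Glycogen synthase (GYS1) joins the glucose units into chains, and the branching enzyme (GBE1) adds the branch points. Glycogen phosphorylase (PYGL in the liver form) splits glucose units off the chains again, in phosphorylated form.

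*Tpbpa* and *Tpbpb*, which encode trophoblast specific proteins and are the classical markers of the spongiotrophoblast lineage, lie close together in a cluster of placental genes on chromosome 13. Both are on the minus strand, *Tpbpb* at chr13:60901188-60904880 and *Tpbpa* at chr13:60938492-60941984 (GRCm38), 33611 bases apart with the protein-coding gene *Ctla2a* between them. Their transcripts are close relatives, with 89.5% identity over 865 aligned bases of the longest coding transcript of *Tpbpa*. RefSeq promoter windows of GRCm38.p6 were found for 7 of the 9 genes. The stretches from base 250 to base 51 before the RefSeq start of *Tpbpa* and *Tpbpb* are printed here because the relation of these 2 genes across stages is the main pattern of the data. Capitals mark the letters TGANTCA, the motif of AP-1 factors, and GCCNNNGGC, the motif of AP-2 factors.
Tpbpa: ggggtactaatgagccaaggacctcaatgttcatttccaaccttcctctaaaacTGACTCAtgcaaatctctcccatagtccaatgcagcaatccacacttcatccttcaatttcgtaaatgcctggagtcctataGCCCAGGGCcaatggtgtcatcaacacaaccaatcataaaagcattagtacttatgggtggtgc
Tpbpb: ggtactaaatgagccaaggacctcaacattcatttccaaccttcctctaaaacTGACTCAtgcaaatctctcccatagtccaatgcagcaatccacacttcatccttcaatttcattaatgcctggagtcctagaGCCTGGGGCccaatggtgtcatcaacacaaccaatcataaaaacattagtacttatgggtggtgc
The *Tpbpa* stretch is chr13:60941987-60942186 and the *Tpbpb* stretch chr13:60904898-60905097, both read on the minus strand of GRCm38.p6. They share 190 of 198 aligned bases (96.0%). Each holds 1 AP-1 match, which starts 196 bases before the start of *Tpbpa* and 197 before that of *Tpbpb*, and 1 AP-2 match, which starts 114 and 115 bases before it. Both motifs read the same on either strand and the matches do not overlap. AP-1 letters stood in 5.57% and AP-2 letters in 10.6% of the 32851 windows of this length of all genes. Among the 7 genes with a window, AP-1 letters were found in 2 genes (*Tpbpa* and *Tpbpb*) and AP-2 letters in 5 (*Tpbpa*, *Tpbpb*, *Gjb5*, *Gys1* and *Ugp2*). The letters TATAAA, on either strand, stood in the *Gjb5* window alone among these genes and in 9.14% of all windows, and AGATAA stood in none of them and in 8.42% of all windows. A match is a description of letters, not of bound factors.

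The other members are spread over the genome (GRCm38). *Pcdh12*, a protocadherin of glycogen trophoblast and endothelium, is at chr18:38267089-38284402 on the minus strand, and *Gjb5*, a gap junction connexin of spongiotrophoblast, at chr4:127354809-127358181 on the minus strand. *Aldh1a3*, a retinaldehyde dehydrogenase that makes retinoic acid, is at chr7:66390890-66427517 on the minus strand, and *Gys1* at chr7:45434844-45456619 on the plus strand. *Gbe1* is at chr16:70313949-70569716 on the plus strand, *Ugp2* at chr11:21321138-21371201 on the minus strand and *Pygl* at chr12:70190811-70231488 on the minus strand. All 9 are protein-coding, and values below are sums over the exons of each gene. Reads that map to several places were left out by the counting, so the share of *Tpbpa* against *Tpbpb* rests on the reads that tell them apart. Counting also ignored strand: 310 exonic bases of *Gys1* overlap *Ruvbl2* and 78 of *Ugp2* overlap *Gm12043*, each on the opposite strand.

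Total counts per library ran from 20975717 to 37383108. Levels are given as CPM, counts scaled to the size of the library, on library sizes normalized over all 24 libraries. The deleted gene, *C1qtnf6*, stood at 64.6 to 165 CPM in the 12 WT libraries and at 0.0341 to 2.02 CPM in the 12 KO libraries, so each library matched its genotype label. Of 10 marker lists of cell types, every marker of decidual stroma, trophoblast giant cells, spongiotrophoblast, endothelium, NK cells and the other lists was detected in every group, except the labyrinth marker *Synb*, which was at 0 in WT gd10.5 and WT gd19.5. KO gd10.5 replicate 2 stood apart. The spongiotrophoblast gene *Prl8a8*, which is not a member, stood at 208 CPM in it against 4.08 to 10.6 CPM in the other gd10.5 libraries, and the giant cell gene *Prl3d1* at 153 CPM against 1355 to 2965 CPM. Its labyrinth markers summed to 946 CPM against 422 and 377 in the other KO gd10.5 libraries, and its NK cell markers to 339 against 804 and 708. It was also the only gd10.5 library with Y-linked transcripts (71.7 CPM, against at most 0.314 in the other gd10.5 libraries). Whether its stage or dissection differed was not tested. Of the tests of members that rest on it, those of *Tpbpa* and *Tpbpb* are given with and without it. For the other members the values without it are given only where named. Correlations and the values of the other gene lists include it throughout. In bulk tissue, fewer cells of a type and less RNA per cell cannot be told apart.

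*Tpbpa* had the highest mean level of the members in each of the 8 groups. In WT it stood at 1166, 1599 and 1733 CPM at gd10.5, at 20496, 19920 and 21771 CPM at gd14.5, at 21560, 23674 and 16851 CPM at gd16.5, and at 14217, 15423 and 19029 CPM at gd19.5. The libraries of gd10.5 lay far below all others, those of gd16.5 overlapped with both neighbouring stages, and those of gd19.5 lay below those of gd14.5. *Tpbpa* rose 13.6-fold from gd10.5 to gd14.5 (log2 fold change 3.77, SE 0.194, adjusted p = 1.36e-08). In KO it stood at 777, 10231 and 650 CPM at gd10.5, at 20920, 17117 and 20535 CPM at gd14.5, at 30850, 27697 and 27756 CPM at gd16.5, and at 15155, 12444 and 16538 CPM at gd19.5. The KO libraries of gd16.5 were the highest of all 24, and KO gd10.5 replicate 2 lay between its own group and gd14.5.

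*Tpbpb* rose by a larger factor than *Tpbpa* and passed the test again in the next step. In WT its level was 85.9, 97.7 and 91.9 CPM at gd10.5, 5896, 6300 and 6532 CPM at gd14.5, 8926, 9746 and 6900 CPM at gd16.5, and 6447, 7189 and 8445 CPM at gd19.5. It rose 67.0-fold from gd10.5 to gd14.5 (log2 fold change 6.07, SE 0.175, adjusted p = 6.24e-11) and again to gd16.5 by 0.47 on the log2 scale (SE 0.140, adjusted p = 0.0286). The second call was lost without any 1 of the WT gd14.5 libraries or without WT gd16.5 replicate 1 or 2 (adjusted p = 0.0610 to 0.115), and in the fit of all 24 libraries (0.717). In KO its level was 43.9, 1251 and 36.0 CPM at gd10.5, 5425, 4868 and 6398 CPM at gd14.5, 12738, 11740 and 11392 CPM at gd16.5, and 7347, 5384 and 8149 CPM at gd19.5. As for *Tpbpa*, the single high library of KO gd10.5 was replicate 2.

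**Figure D1:**
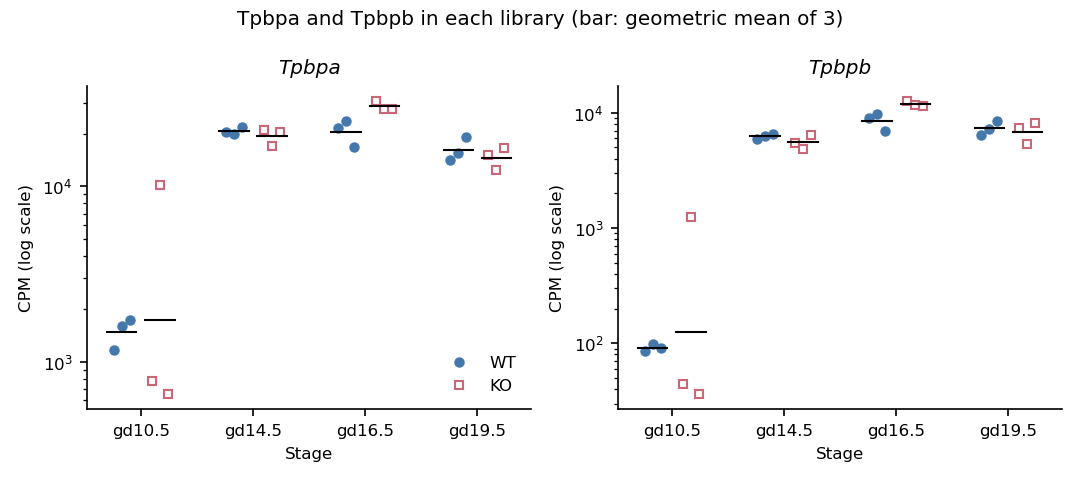
Level of *Tpbpa* (left) and *Tpbpb* (right) in CPM on a log axis in each of the 24 libraries, by stage, with WT as filled circles, KO as open squares and the geometric mean of 3 libraries as a bar. KO gd10.5 replicate 2 stands at 10231 CPM of *Tpbpa* and 1251 CPM of *Tpbpb*, far above the other gd10.5 libraries, and the KO libraries of gd16.5 lie above the WT libraries of that stage.

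Together these 2 genes took 0.137% to 0.210% of all counts in WT gd10.5, 2.63% to 2.83% in WT gd14.5, 2.19% to 3.10% in WT gd16.5, up to 3.84% in KO gd16.5 (mean 3.62% ± 0.195, SD, n = 3) and 2.06% to 2.67% in WT gd19.5. Their ratio shifted with stage. Per kilobase of gene length, the ratio of *Tpbpb* to *Tpbpa* counts was 0.0886 to 0.123 at WT gd10.5, 0.480 to 0.528 at WT gd14.5, 0.684 to 0.692 at WT gd16.5 and 0.741 to 0.779 at WT gd19.5, so no 2 stages overlapped in WT. In KO it was 0.0925, 0.0944 and 0.204 at gd10.5, with replicate 2 the highest, then 0.433 to 0.520 at gd14.5, 0.686 to 0.708 at gd16.5 and 0.723 to 0.823 at gd19.5, again with no overlap between stages. At each stage the KO and WT ranges of the ratio overlapped, also at gd16.5, where both genes were highest in KO. The ratio was not tested.

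**Figure D2:**
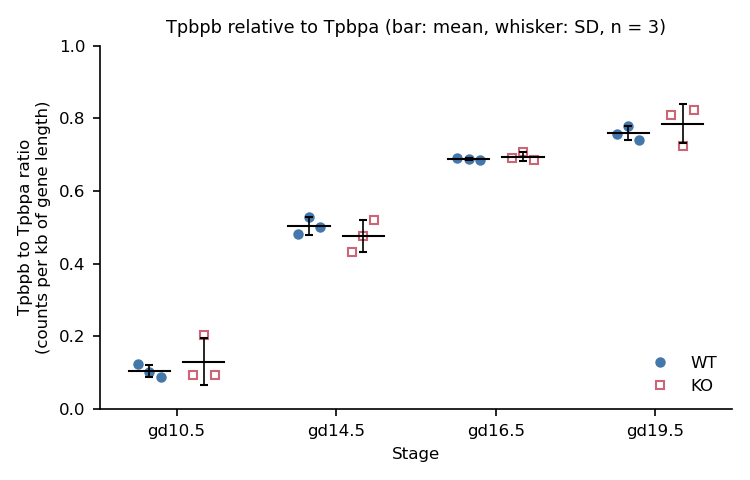
Ratio of *Tpbpb* to *Tpbpa* counts per kilobase of gene length in each library, by stage, with WT as filled circles and KO as open squares, the mean as a bar and the SD as a whisker (n = 3). The mean WT ratio climbed from 0.105 in the first stage through 0.503 and 0.688 to 0.759 in the last, and the KO libraries of each stage lie around the WT libraries.

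*Pcdh12* also rose with placental growth but was lower again before term. In WT it stood at 41.7, 45.1 and 54.9 CPM at gd10.5, at 132, 164 and 157 CPM at gd14.5, at 129, 122 and 159 CPM at gd16.5, and at 98.1, 86.9 and 80.2 CPM at gd19.5. It rose between gd10.5 and gd14.5 (log2 fold change 1.66, SE 0.130, adjusted p = 4.52e-07) and fell between gd16.5 and gd19.5 (log2 fold change -0.62, SE 0.127, adjusted p = 0.0124), with no overlap between the libraries in either step. In KO it stood at 44.7, 80.6 and 36.4 CPM at gd10.5, 130, 135 and 176 CPM at gd14.5, 116, 113 and 163 CPM at gd16.5, and 69.9, 86.8 and 78.5 CPM at gd19.5. The fall in WT was no longer past the limit without WT gd19.5 replicate 2 (adjusted p = 0.0533) or replicate 3 (0.0682).

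*Aldh1a3* had the widest swing after the Tpbp genes. In WT it went from 30.1, 38.3 and 38.0 CPM at gd10.5 to 169, 253 and 319 CPM at gd14.5, then to 165, 139 and 158 CPM at gd16.5 and 64.5, 61.3 and 37.8 CPM at gd19.5. It rose 6.85-fold to gd14.5 (log2 fold change 2.78, SE 0.231, adjusted p = 7.18e-07), fell to gd16.5 (log2 fold change -0.66, SE 0.216, adjusted p = 0.0446) and fell further to gd19.5 (log2 fold change -1.48, SE 0.222, adjusted p = 0.00238). The spread at gd14.5 was wide, and the fall to gd16.5 was lost when WT gd14.5 replicate 2 or 3 or any 1 of the WT gd16.5 libraries was left out (adjusted p = 0.0742 to 0.210). In KO the gene stood at 41.1, 103 and 36.0 CPM at gd10.5, at 240, 190 and 367 CPM at gd14.5, at 163, 155 and 227 CPM at gd16.5, and at 35.1, 41.9 and 46.7 CPM at gd19.5.

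*Gjb5* changed little by comparison. Its level in WT was 40.6, 49.6 and 65.6 CPM at gd10.5, 64.6, 69.4 and 64.7 CPM at gd14.5, 43.0, 44.9 and 50.3 CPM at gd16.5, and 36.7, 38.4 and 30.5 CPM at gd19.5. In KO its level was 57.2, 70.5 and 34.4 CPM at gd10.5, 56.1, 55.0 and 71.2 CPM at gd14.5, 37.7, 43.0 and 58.3 CPM at gd16.5, and 36.4, 42.8 and 40.6 CPM at gd19.5. The step from gd10.5 to gd14.5 did not pass in WT (log2 fold change 0.33, SE 0.144, adjusted p = 0.0680), although without WT gd10.5 replicate 3, the highest of its group, the value was 0.54 (adjusted p = 0.00122). *Gjb5* fell from gd14.5 to gd16.5 (log2 fold change -0.50, SE 0.145, adjusted p = 0.0256), a call that was lost without any 1 of the WT gd14.5 libraries or without WT gd16.5 replicate 1 or 2 (adjusted p = 0.0622 to 0.0862).

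For the enzymes of glycogen synthesis, as for *Gjb5*, no rise passed the test at gd14.5, and their mean levels at gd16.5 and gd19.5 were below those of the earlier stages. *Gbe1* stood at 31.4, 28.1 and 31.6 CPM in WT gd10.5, at 30.8, 30.6 and 33.2 CPM at gd14.5, at 19.2, 23.4 and 21.4 CPM at gd16.5, and between 16.3 and 19.6 CPM at gd19.5. Every WT library of the later 2 stages was below every WT library of the earlier 2 stages, and the fall from gd14.5 to gd16.5 was 0.54 on the log2 scale (log2 fold change -0.54, SE 0.0978, adjusted p = 0.00189). *Ugp2*, the most abundant of the enzymes, had the same form: 278, 306 and 292 CPM at WT gd10.5, 328, 298 and 311 CPM at gd14.5, 203, 225 and 216 CPM at gd16.5, and 200, 200 and 221 CPM at gd19.5. It fell from gd14.5 to gd16.5 (log2 fold change -0.52, SE 0.0775, adjusted p = 0.000511) and was flat afterwards, with a difference of -0.04 between gd19.5 and gd16.5 (95% interval -0.21 to 0.13).

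In KO, *Gbe1* ran from 24.7 to 31.9 CPM at gd10.5, 29.7 to 33.0 CPM at gd14.5, 19.3 to 23.5 CPM at gd16.5 and 14.7 to 19.2 CPM at gd19.5. *Ugp2* in KO ran from 253 to 334 CPM, 266 to 311 CPM, 208 to 215 CPM and 155 to 205 CPM in the same order of stages.

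*Gys1* declined more gradually in WT. It stood at 83.6, 82.6 and 97.5 CPM at gd10.5, at 75.6, 82.7 and 80.1 CPM at gd14.5, at 61.1, 59.2 and 84.8 CPM at gd16.5, and at 53.0, 51.6 and 46.1 CPM at gd19.5. WT gd16.5 replicate 3 was above every library of gd14.5 and apart from the other libraries of its group. The step from gd14.5 to gd16.5 did not pass in WT (log2 fold change -0.20, SE 0.121, adjusted p = 0.274), but without that library the value was -0.37 (adjusted p = 0.0144). The next step was just over the limit (log2 fold change -0.43, SE 0.122, adjusted p = 0.0505), with every library of gd19.5 below every library of gd16.5. In KO, *Gys1* ran from 83.6 to 92.3 CPM at gd10.5, 79.6 to 88.8 CPM at gd14.5, 52.7 to 62.0 CPM at gd16.5 and 47.3 to 55.9 CPM at gd19.5. The last WT step passed when WT gd16.5 replicate 1 or 2 was left out (adjusted p = 0.0452 and 0.0349).

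*Pygl*, whose enzyme splits glucose units off glycogen, had its highest WT levels at gd14.5. The WT libraries read 61.6, 57.3 and 62.5 CPM at gd10.5, 65.6, 80.7 and 78.0 CPM at gd14.5, 65.9, 53.8 and 70.6 CPM at gd16.5, and 51.0, 54.1 and 43.4 CPM at gd19.5. The rise to gd14.5 was small (log2 fold change 0.29, SE 0.110, adjusted p = 0.0415), and it was lost without WT gd10.5 replicate 1 or 2 or WT gd14.5 replicate 2 or 3 (adjusted p = 0.0731 to 0.143). The fall to gd19.5 did not pass (log2 fold change -0.34, SE 0.111, adjusted p = 0.0804), but did without WT gd16.5 replicate 2 (log2 fold change -0.44, adjusted p = 0.0335). In KO, *Pygl* ran from 50.3 to 83.0 CPM at gd10.5, 75.2 to 89.2 CPM at gd14.5, 69.1 to 94.0 CPM at gd16.5 and 53.0 to 54.3 CPM at gd19.5. The highest *Pygl* level of all libraries, 94.0 CPM, was that of KO gd16.5 replicate 2, which also held the highest level of *Afp*, a yolk sac endoderm marker, among the gd16.5 libraries (14828 CPM, against 88.8 in KO gd16.5 replicate 3). The part of yolk sac tissue in the *Pygl* level was not tested.

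**Figure D3:**
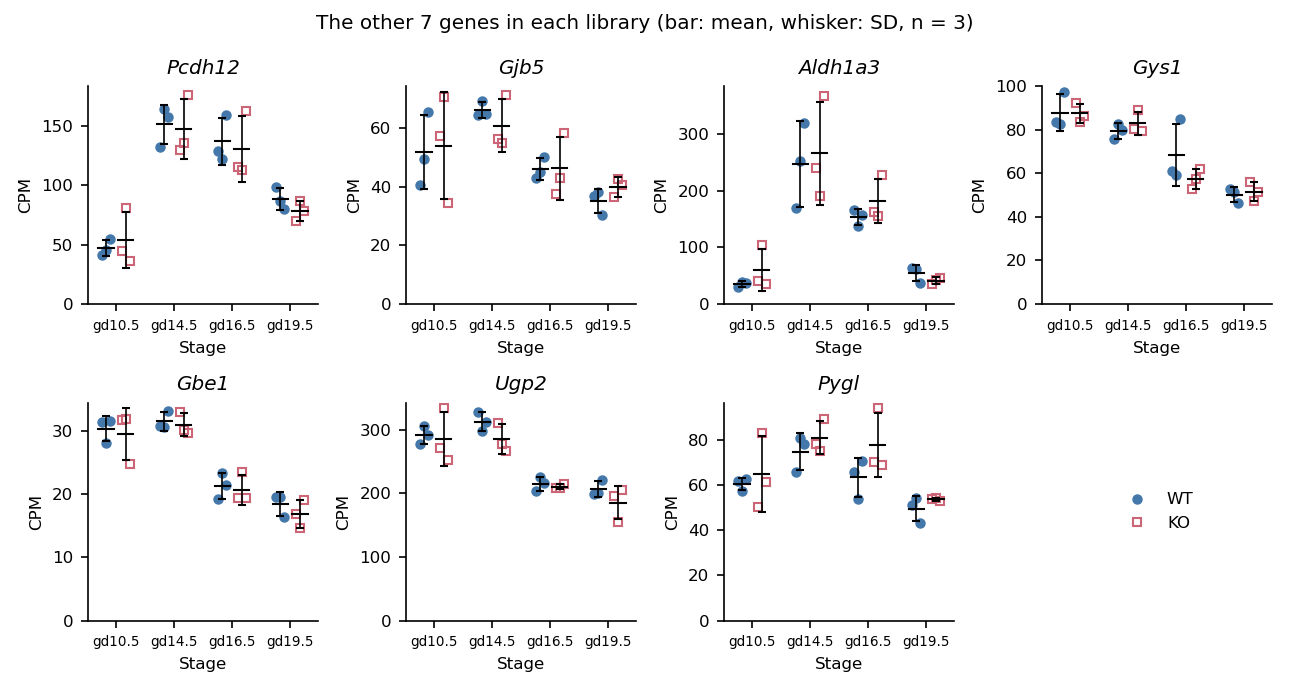
Level in CPM of the other 7 genes in each library, by stage, with WT as filled circles, KO as open squares, the mean as a bar and the SD as a whisker (n = 3), on axes that start at 0. The means of *Pcdh12* and *Aldh1a3* are highest at gd14.5. The gd14.5 and gd16.5 libraries overlap in both genotypes for *Pcdh12*, and in KO for *Aldh1a3*. *Gbe1* and *Ugp2* stand lower at gd16.5 and gd19.5 than before in both genotypes.

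Levels can be set between genes only per kilobase of gene length. On that scale the WT order at gd14.5 was *Tpbpa* (mean 9718 CPM per kilobase), *Tpbpb* (4889), *Ugp2* (102), *Aldh1a3* (53.5), *Gjb5* (38.5), *Pcdh12* (25.0), *Gys1* (16.6), *Pygl* (10.8) and *Gbe1* (5.89), and only *Aldh1a3* and *Gjb5* overlapped as neighbours. At WT gd10.5 *Ugp2* stood above *Tpbpb* (71.9) without overlap, and *Pygl*, *Pcdh12* and *Aldh1a3* (8.77, 7.80 and 7.68) overlapped as neighbours. At WT gd19.5 *Tpbpa* and *Tpbpb* (7606 and 5764) were still apart, while *Pcdh12* (14.6), *Aldh1a3* (11.8) and *Gys1* overlapped as neighbours. In KO, *Tpbpa* and *Tpbpb* overlapped at gd10.5, where replicate 2 enters, and at gd19.5 (means 6898 and 5450). *Gbe1* was the lowest of the 9 in each of the 8 groups.

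Counted over the members, 5 of 9 rose from gd10.5 to gd14.5 in WT (*Tpbpa*, *Tpbpb*, *Pcdh12*, *Aldh1a3* and *Pygl*) and 0 fell, where 27.7% of the 18523 genes tested rose and 28.3% fell, so the share of risers among the members was above that of all genes. From gd14.5 to gd16.5, 1 of 9 rose (*Tpbpb*) against 12.5% of all genes and 4 fell (*Gjb5*, *Aldh1a3*, *Gbe1* and *Ugp2*) against 9.91%. From gd16.5 to gd19.5, 0 rose against 3.16% of all genes and 2 fell (*Pcdh12* and *Aldh1a3*) against 4.81%. The median log2 fold change of the members was 0.33, -0.22 and -0.34 in the 3 steps, beside -0.01 over all genes in each. With library totals in place of normalized library sizes, 4046 genes rose and 6483 fell in the first step (5125 and 5235 otherwise), 1374 and 4076 in the second (2317 and 1836 otherwise), and 934 and 474 in the last (585 and 891 otherwise). The median of all genes then moved to -0.12, -0.16 and 0.07. Of the members' WT calls, *Pygl* in the first step (adjusted p = 0.229) and *Tpbpb* in the second (0.0838) were lost under that scaling, and no called direction turned.

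The same steps were tested in the KO libraries. From gd10.5 to gd14.5, 4 of 9 members rose against 22.1% of the 18467 genes tested and 0 fell against 24.1%. *Tpbpa* rose by 2.33 on the log2 scale (SE 0.846, adjusted p = 0.0417), *Tpbpb* by 3.65 (SE 1.09, adjusted p = 0.0181), *Pcdh12* by 1.44 (SE 0.262, adjusted p = 0.00141) and *Aldh1a3* by 2.14 (SE 0.378, adjusted p = 0.00123). Without KO gd10.5 replicate 2 the values were 4.77 (SE 0.218, adjusted p = 4.56e-08) for *Tpbpa* and 7.12 (SE 0.267, adjusted p = 1.34e-08) for *Tpbpb*, and *Pygl* passed as well (log2 fold change 0.53, adjusted p = 0.00538). The *Tpbpa* call was lost without any 1 of the other KO libraries of the 2 stages (adjusted p = 0.0671 to 0.103).

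From gd14.5 to gd16.5, 0 of 9 members rose in KO against 9.37% of all genes, and 3 fell against 8.1%: *Gys1* (log2 fold change -0.51, SE 0.0873, adjusted p = 0.00356), *Gbe1* (-0.56, SE 0.129, adjusted p = 0.0144) and *Ugp2* (-0.41, SE 0.124, adjusted p = 0.0410). The *Ugp2* call was lost without any 1 of the 6 libraries compared (adjusted p = 0.0723 to 0.143), and the *Gbe1* call without KO gd14.5 replicate 1 (0.0600) or KO gd16.5 replicate 1 (0.0634). *Tpbpa* (0.58, SE 0.809) and *Tpbpb* (1.13, SE 0.997) did not pass. The libraries of a genotype share 1 estimate of the spread, and KO gd10.5 replicate 2 enters it. Without that library, left out here after the data had been seen, *Tpbpa* rose by 0.58 (SE 0.156, adjusted p = 0.0181) and *Tpbpb* by 1.12 (SE 0.171, adjusted p = 0.000932) between gd14.5 and gd16.5, so that 5 members were past the limit in place of 3. The number of all genes past it grew as well, to 5259 in place of 3226.

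From gd16.5 to gd19.5, 0 of 9 members rose in KO against 0.574% of all genes and 1 fell against 0.666%, *Aldh1a3* (log2 fold change -2.15, SE 0.380, adjusted p = 0.0398). That call was lost without KO gd16.5 replicate 1 or 2 or any 1 of the KO gd19.5 libraries (adjusted p = 0.0544 to 0.185). Every KO library of gd19.5 was below every KO library of gd16.5 for *Tpbpa*, *Tpbpb*, *Pcdh12*, *Aldh1a3*, *Gbe1*, *Pygl* and *Ugp2*. The share of all genes with such a gap between these stages was not counted, so this describes the libraries only. Without KO gd10.5 replicate 2 in the fit, 5 members fell: *Tpbpa* by 0.98 (SE 0.157, adjusted p = 0.00858), *Tpbpb* by 0.79 (SE 0.170, adjusted p = 0.0216), *Pcdh12* by 0.74 (SE 0.163, adjusted p = 0.0224), *Pygl* by 0.54 (SE 0.119, adjusted p = 0.0224) and *Aldh1a3* by 2.15 (SE 0.230, adjusted p = 0.00279). In that fit 1640 of all genes were past the limit, in either direction, in place of 229. With library totals, 2921 genes rose and 5679 fell in the first KO step (4072 and 4451 otherwise), 1124 and 5054 in the second (1730 and 1496 otherwise), and 1101 and 260 in the last (106 and 123 otherwise). Neighbouring steps share the libraries of the stage between them.

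**Figure D4:**
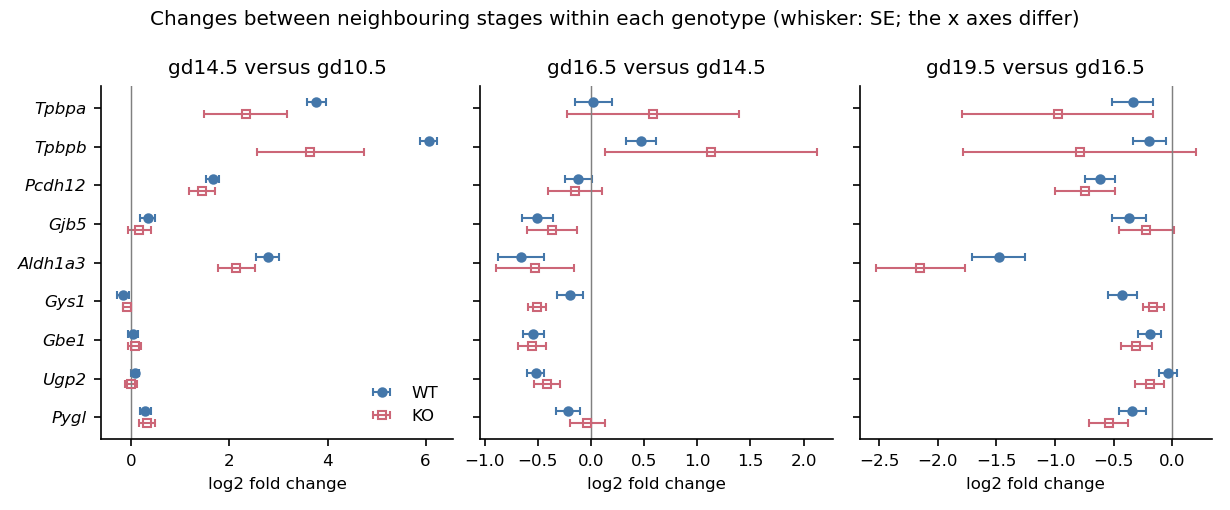
Log2 fold change between neighbouring stages for each gene, in WT (filled circles) and in KO (open squares), with the SE as a whisker and a separate x axis per step. *Tpbpb* in WT has the largest rise, 6.07 from gd10.5 to gd14.5, and the long KO whiskers of *Tpbpa* and *Tpbpb* come with the spread of KO gd10.5.

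The knockout was compared with WT at each stage to see whether the loss of CTRP6 changes these genes. No member passed at any stage. Of all genes tested, 0.00572% passed in the comparison of gd10.5, 0.0166% in that of gd14.5, 0.00586% in that of gd16.5 and 0.115% in that of gd19.5, by edgeR's quasi-likelihood test, which is 1, 3, 1 and 20 genes. With unadjusted p-values, 0, 0, 2 and 1 members were under 0.05, among 140, 1222, 1894 and 2354 genes.

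The comparison at gd16.5 held the only members whose KO and WT libraries did not overlap. *Tpbpa* stood at 28768 ± 1804 CPM in KO and 20695 ± 3493 CPM in WT (SD, n = 3 each), a log2 fold change of 0.50 (SE 0.158, 95% interval 0.13 to 0.87, adjusted p = 0.421). *Tpbpb* stood at 11957 ± 699 CPM in KO and 8524 ± 1465 CPM in WT, a log2 fold change of 0.51 (SE 0.154, 95% interval 0.15 to 0.87, adjusted p = 0.421). For these 2 of 9 members all KO libraries were above all WT libraries, which was so for 7.16% of all genes, and 0 of 9 were below, against 11.4% of all genes. DESeq2, the tool the study used, gave 0.48 (adjusted p = 0.0432) for *Tpbpa* and 0.50 (adjusted p = 0.0350) for *Tpbpb*, both under a log2 fold change of 1. Over all alternatives the log2 fold change ran from 0.37 to 0.61 for *Tpbpa* and from 0.38 to 0.62 for *Tpbpb*, with adjusted p from 0.0432 to 0.890 and from 0.0350 to 0.887. Y-linked transcripts were at 89.4 CPM or more in 2 KO libraries and 1 WT library of that stage, and with their level as a covariate the log2 fold change was 0.46 for each gene. The lowest values were those without WT gd16.5 replicate 3, the lowest WT library for both genes.

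Markers of other cell types were summed in the same libraries. The 5 giant cell markers summed to 19007 to 21322 CPM in KO gd16.5 and 12338 to 17062 CPM in WT gd16.5, and the 7 labyrinth markers to 7467 to 9467 CPM in KO and 5899 to 8375 CPM in WT. Smooth muscle markers (5 genes) were lower, at 102 to 107 CPM in KO against 132 to 166 CPM in WT, as were the 5 uterine epithelium markers, at 371 to 436 CPM against 439 to 530 CPM. The spongiotrophoblast list consists mostly of members and gives no separate reading. The yolk sac list ran from 153 to 22289 CPM in KO and from 72.4 to 8064 CPM in WT. The part of tissue make-up in the difference of *Tpbpa* and *Tpbpb* was not tested. Of the remaining members, *Pcdh12* differed by -0.04 (95% interval -0.42 to 0.34), *Gjb5* by 0.04 (-0.33 to 0.40), *Gbe1* by -0.01 (-0.28 to 0.25), *Ugp2* by -0.00 (-0.17 to 0.17), *Gys1* by -0.23 (-0.56 to 0.10), *Aldh1a3* by 0.27 (-0.09 to 0.62) and *Pygl* by 0.32 (-0.02 to 0.66) on the log2 scale.

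At gd10.5 the members' differences depended on KO replicate 2. With all 6 libraries, *Tpbpa* was 1.36 (SE 1.04, adjusted p = 1.00) and *Tpbpb* 2.25 (SE 1.32, adjusted p = 1.00) higher in KO on the log2 scale. Without replicate 2 the direction turned: *Tpbpa* was -1.07 (SE 0.207, adjusted p = 0.932) and *Tpbpb* -1.20 (SE 0.117, adjusted p = 0.0566), since the remaining KO libraries, at 777 and 650 CPM of *Tpbpa* and 43.9 and 36.0 CPM of *Tpbpb*, were below each WT library. The adjusted p of *Tpbpb* over the alternatives ran from 0.0566 to 1. *Pcdh12*, *Gjb5*, *Pygl* and *Gys1* also changed sign, to -0.22, -0.18, -0.12 and 0.021, and *Aldh1a3* went from 0.75 to 0.12. The enzymes differed by at most 0.09 in size with all libraries. No member had separate KO and WT libraries at gd10.5, where all KO libraries were above all WT libraries for 2.34% of genes and below for 1.91%.

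At gd14.5 no difference of a member was larger than 0.16 on the log2 scale. The largest was that of *Tpbpb*, at 5564 ± 774 CPM in KO and 6243 ± 322 CPM in WT (log2 fold change -0.16, 95% interval -0.44 to 0.13). *Aldh1a3* had the widest interval (0.12, 95% interval -0.44 to 0.68), and *Gys1* the narrowest (0.07, -0.07 to 0.20). No member had separate groups, beside 5.33% of genes above and 7.2% below.

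At gd19.5 *Aldh1a3* had the largest difference, at 41.2 ± 5.85 CPM in KO and 54.5 ± 14.6 CPM in WT (log2 fold change -0.43, 95% interval -0.82 to -0.04, adjusted p = 0.336 by edgeR). WT replicate 3 (37.8 CPM) lay among the KO libraries. This call was made only without an expression filter (adjusted p = 0.000145). *Pcdh12* was lower by a smaller amount (-0.20, 95% interval -0.41 to 0.01) and *Ugp2* likewise (-0.19, -0.41 to 0.04), and both stayed short of the limit (adjusted p = 0.388 and 0.445). *Tpbpa* (-0.17, -0.58 to 0.24) and *Tpbpb* (-0.11, -0.52 to 0.29) no longer stood higher in KO. No member had separate groups, beside 13% of genes above and 8.4% below. Decidual stroma markers summed to 2235 to 2642 CPM in KO gd19.5 and 2768 to 4044 CPM in WT gd19.5, and smooth muscle markers to 156 to 242 CPM and 111 to 142 CPM, and their part in these differences was not tested.

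**Figure D5:**
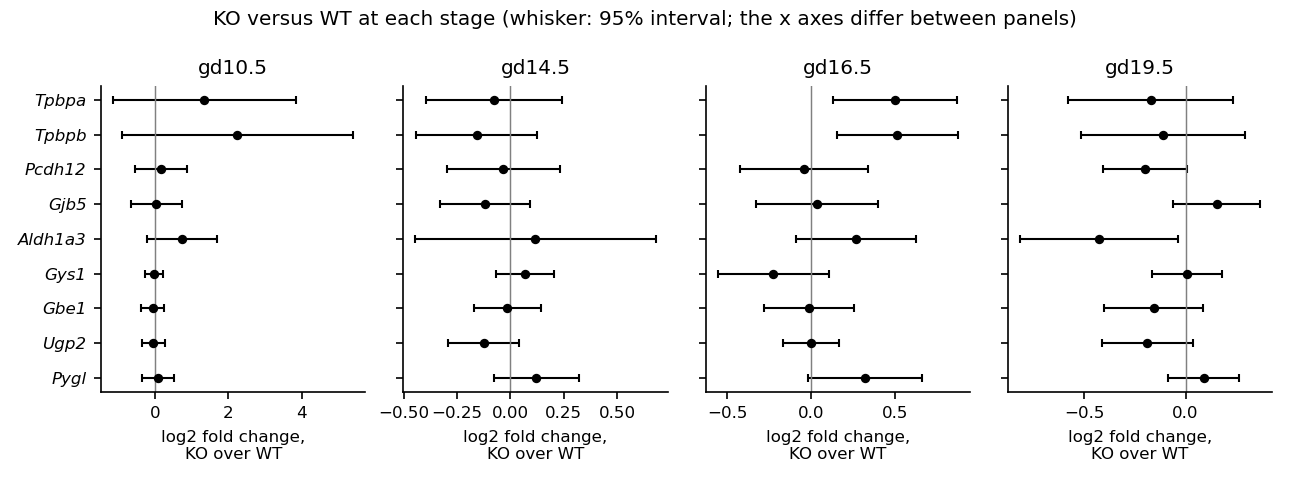
Log2 fold change of KO over WT at each stage for each gene, with its 95% interval as a whisker and a separate x axis per panel (3 KO and 3 WT libraries per stage). The intervals of *Tpbpa* and *Tpbpb* at gd16.5 lie above 0, at 0.13 to 0.87 and 0.15 to 0.87, and their intervals at gd10.5 are the widest of all.

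Over all 4 stages in 1 additive model, 0 of 9 members passed, beside 0.0155% of 19299 genes (3 genes, and 1223 at an unadjusted p under 0.05). With all libraries the smallest p-value was that of *Pygl*, which was 0.16 higher in KO on the log2 scale (SE 0.0716, 95% interval 0.011 to 0.31, adjusted p = 0.746 by edgeR). Without KO gd10.5 replicate 2, *Tpbpa* went from 0.40 (SE 0.318) to -0.14 (SE 0.144), and *Tpbpb* from 0.59 (SE 0.421) to -0.16 (SE 0.148). In that edgeR fit *Pygl* was at 0.12 (SE 0.0665, adjusted p = 0.622) and *Ugp2* at -0.11 (SE 0.0446, adjusted p = 0.442), and no member passed. Whether the knockout effect differs between stages was tested as the genotype-by-stage interaction. With all libraries 0 of 9 members passed, beside 0% of all genes (1396 genes at an unadjusted p under 0.05, and 38 past the adjusted p by DESeq2), and the adjusted p was 0.820 for *Tpbpa* and 0.747 for *Tpbpb*. Without KO gd10.5 replicate 2 both passed, *Tpbpa* at an adjusted p of 0.0459 and *Tpbpb* at 0.0169, and they were the only members to do so. In that fit 42 of all genes tested passed, against 0 with all libraries. In the stage comparisons given above, without that library, both had negative values at the first stage and positive ones at gd16.5.

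The genes of the same biology that are not members were read the same way, from lists written out with earlier results in view. Of 18 other junctional zone genes, all tested, 12 rose and 2 fell from gd10.5 to gd14.5 in WT, with a median log2 fold change of 2.90, where 27.7% of all genes rose and 28.3% fell. *Prl8a8*, a placental prolactin of spongiotrophoblast, had the largest rise, from 7.01 ± 3.22 to 3579 ± 119 CPM (log2 fold change 8.97, SE 0.307), followed by the pregnancy-specific glycoprotein gene *Psg21*, from 43.8 ± 6.86 to 9033 ± 872 CPM (7.67, SE 0.179). The largest falls were those of *Phlda2*, an imprinted gene that restrains growth of the zone (-2.41, SE 0.274), and *Prl6a1* (-2.35, SE 0.152). From gd14.5 to gd16.5, 5 rose, led by *Prl3a1* (2.79, SE 0.230) and *Prl8a6* (2.41, SE 0.209), and 3 fell, led by *Prl6a1* (-2.29, SE 0.173) and *Phlda2* (-2.16, SE 0.320). From gd16.5 to gd19.5, 1 rose, *Prl8a6* (1.15, SE 0.201), and 6 fell, led by *Ascl2*, a transcription factor of the spongiotrophoblast lineage (-1.19, SE 0.296), and *Flt1*, a receptor of vascular growth factor (-0.92, SE 0.178). Of all genes, 12.5% rose and 9.91% fell in the second WT step, and 3.16% and 4.81% in the last. In KO, with gd10.5 replicate 2 in the fit, 10 rose and 2 fell in the first step, 3 and 3 in the second, and 0 and 0 in the last. Of all genes tested in KO, 22.1% rose and 24.1% fell in the first step, 9.37% and 8.1% in the second, and 0.574% and 0.666% in the last. The list's median log2 fold change in the last step was -0.45 in KO and -0.23 in WT.

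In KO against WT, 0 of these 18 genes passed at any stage. At gd16.5 the KO libraries of 6 of them (*Prl8a8*, *Prl3a1*, *Prl7b1*, *Prl8a6*, *Psg19* and *Psg21*) were all above the WT libraries and those of 0 were below, where 7.16% of all genes were above and 11.4% below, and the median log2 fold change was 0.18 beside 0.01 over all genes. The largest of these 6 values were 0.98 for *Prl8a6* and 0.91 for *Prl3a1*. At gd14.5 the list had 0 genes above and 2 below (5.33% and 7.2% of all genes), and at gd19.5 it had 3 above and 1 below (13% and 8.4% of all genes). At gd10.5, where KO replicate 2 enters, its median was 0.69.

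The 29 other glycogen genes were mixed. Of 27 tested in WT, 8 rose and 6 fell from gd10.5 to gd14.5, with a median log2 fold change of 0.04, counts near the 27.7% and 28.3% of all genes. The largest rises were those of *Ppp1r3f* (1.64, SE 0.194) and *Ppp1r3g* (1.63, SE 0.172), which encode subunits that target protein phosphatase 1 to glycogen, and the largest falls those of *Ppp1r3d*, of the same family (-1.66, SE 0.148), and *Pygb*, the brain form of the phosphorylase (-0.90, SE 0.0791). From gd14.5 to gd16.5, 2 rose, led by *Pgm2l1* (0.53, SE 0.106), and 5 fell, led by *Ppp1r3g* (-0.94, SE 0.169) and the phosphoglucomutase gene *Pgm2* (-0.62, SE 0.0712). From gd16.5 to gd19.5, 1 rose, *Phka2*, a phosphorylase kinase subunit (0.46, SE 0.124), and 5 fell, led by *Ppp1r3g* (-0.74, SE 0.176) and *Ppp1r3b* (-0.55, SE 0.118). Beside these counts, of 27 tested in each step, 12.5% of all genes rose and 9.91% fell in the second step. In the last step the shares were 3.16% and 4.81%. In KO against WT 0 of the tested genes passed at any stage, and the list's median log2 fold change lay between 0.01 and 0.07 at each of the 4 stages. At gd19.5 the KO libraries of 7 of 26 tested genes were all above the WT libraries and those of 3 below (13% and 8.4% of all genes). At gd16.5 it was 2 above and 1 below of 25 (7.16% and 11.4% of all genes). The counts at gd10.5 and at gd14.5 were 1 above and 1 below.

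The members fell into separate courses over the 24 libraries, described here by correlations of log2 CPM with no test, since the libraries share stages. *Tpbpa* and *Tpbpb* followed each other closely (Pearson r = 0.988), and so did their deviations from the group means (r = 0.991). *Gbe1* and *Ugp2* also ran together (r = 0.929), as did *Pcdh12* and *Aldh1a3* (0.902), while *Tpbpb* and *Gys1* ran against each other (-0.621). Among deviations from group means, *Pcdh12* was close to *Gjb5* and *Aldh1a3* (0.865 each), although its r with *Gjb5* over the 24 libraries was 0.386. *Gbe1* was less close to *Ugp2* among the deviations (0.470). KO gd10.5 replicate 2, which stood apart from its group, enters all of these correlations.

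Outside the members, the genes most like *Tpbpa* over the 24 libraries were *Ctsm*, *Psg18* and *Gm5155* (r = 0.995, 0.994 and 0.994), and those most like *Tpbpb* were *Psg28*, *Prl8a9* and *Psg21* (0.999, 0.998 and 0.997). *Septin5* (0.981), *Gpc1* (0.979) and *Usp27x* were most like *Pcdh12*, and *Pla2g4d*, *Pla2g4e* and *Calml4* most like *Aldh1a3* (0.979, 0.971 and 0.958). *Gjb5* was nearest to *Basp1*, *Ctnnbip1* and *Dcakd* (0.936, 0.932 and 0.929). For the enzymes the nearest were *Fchsd2*, *E2f8* and *Shmt2* to *Gys1* (0.964, 0.962 and 0.962), *Gabpb2*, *Ascl2* and *Eif4e2* to *Gbe1* (0.950, 0.938 and 0.937), *Fh1*, *Pdhb* and *Nsfl1c* to *Ugp2* (0.945, 0.942 and 0.939), and *Plekhg6*, *Cgnl1* and *Nipsnap2* to *Pygl* (0.878, 0.870 and 0.869). *Pygl* thus had the least close companions of the 9. By rank correlation, 2 of the 3 genes named for *Tpbpa*, *Tpbpb*, *Pcdh12*, *Gjb5* and *Gbe1* were again among the nearest 3, 1 for *Aldh1a3* and *Pygl*, and 0 for *Gys1* and *Ugp2*.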

How the data were processed

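PolyA RNA was sequenced as stranded mRNA libraries in 150 bp read pairs. The authors trimmed reads with Trim Galore 0.6.4, aligned them to GRCm38 with STAR 2.7.3a and counted them per gene with featureCounts of Subread 2.0.0 at default settings, and deposited raw counts, which are whole numbers without normalization. The KO libraries are numbered by their descriptions, since their titles give other numbers.

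Genes were kept by filterByExpr of edgeR 4.0.16 in R 4.3.3 (at least 10 counts in a group's libraries and 15 in all), scaled by TMM and compared with its quasi-likelihood test. KO was compared with WT in the 6 libraries of a stage, and neighbouring stages in the 12 libraries of a genotype. The additive model and the interaction used all 24 libraries. A call had a Benjamini-Hochberg adjusted p under 0.05 over all genes tested, and tests were two-sided. Intervals are 95% intervals of the fit. A count of 3 corresponds to 0.0780 to 0.148 CPM. Log2 CPM used a prior count of 2. Alternatives were other size factors (RLE), library totals, no filter, a filter of 10 counts in every library, DESeq2 1.42.0, the study's limit of an absolute log2 fold change over 1, a replicate block, a covariate for Y-linked expression, a fit of all 24 libraries, and each library left out. The steps were tested on simulated data.

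Members, lists and markers were chosen with earlier results of these data known. Named were all members, *C1qtnf6*, the 3 genes of highest Pearson r with each member, and of each list, per WT step, the 2 largest rises and falls past the limit, except 1 gene that is not reported here. Genes of the lists whose KO and WT libraries did not overlap at gd16.5, *Afp*, *Synb*, *Prl3d1*, *Ctla2a* and the overlapping genes were named after their values were seen. Transcripts were compared with BLAST 2.17.0 and promoters aligned with Biopython 1.88. All 24 pairs of replicates differed by more than counting noise (chi-square over its degrees of freedom 7.86 to 169). Intervals of fits are for the fitted log2 fold change. They rest on the spread between libraries and are not ranges of library values.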

Additional observations from a re-analysis of the deposited data

How the results depend on the processing

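Of the 20 calls made on members in the comparisons between stages, 11 kept their side of the threshold under every alternative that gave a value, apart from the fold limit: *Tpbpa*, *Tpbpb*, *Pcdh12* and *Aldh1a3* in WT and *Tpbpb*, *Pcdh12* and *Aldh1a3* in KO from gd10.5 to gd14.5, *Gbe1* and *Ugp2* in WT and *Gys1* in KO from gd14.5 to gd16.5, and *Aldh1a3* in WT from gd16.5 to gd19.5. Under the fold limit, which asks for an absolute log2 fold change over 1, *Gbe1*, *Ugp2* and *Gys1* of these were lost. No call reversed. Of the 79 values not called, 16 passed under some alternative and 32 changed sign under some alternative. The number of members past the limit moved as follows. In KO against WT it was 2 in place of 0 with DESeq2 at gd16.5, 1 in place of 0 without an expression filter at gd19.5 (*Aldh1a3*), and between 0 and 2 for the interaction when each library was left out, the 2 without KO gd10.5 replicate 2. From gd14.5 to gd16.5 in WT it was 5, but 2 in the fit of all 24 libraries, 0 with the fold limit, and 2 to 5 with each library left out. From gd16.5 to gd19.5 in WT it was 2, but 5 without a filter, 4 with DESeq2, 1 with the fold limit, and 1 to 4 with each library left out. In KO it was 4 from gd10.5 to gd14.5, but 2 with DESeq2, which gave no adjusted p for *Tpbpa* and *Tpbpb*, 3 from gd14.5 to gd16.5, but 0 with the fold limit and 1 to 5 with each library left out, and 1 from gd16.5 to gd19.5, but 3 in the fit of all 24 libraries and 0 to 5 with each library left out. Leaving out a library leaves an arm of 2. The causes were not tested.

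The sign changes of values not called, on the log2 fold change scale, were these. With the Y-linked covariate, the values of opposite sign were *Tpbpa* -1.09, *Tpbpb* -1.22, *Pcdh12* -0.23, *Gjb5* -0.18, *Gys1* 0.020 and *Pygl* -0.13 in KO against WT at gd10.5, and *Pcdh12* 0.087, *Gbe1* 0.0023 and *Ugp2* 0.035 in KO against WT at gd16.5. At gd10.5 this covariate sets KO replicate 2 apart from the rest, so it is no separate check from leaving that library out. With library totals, the values of opposite sign were *Gjb5* -0.047 in KO against WT at gd16.5, and *Gbe1* -0.083 and *Ugp2* -0.036 in the WT step from gd10.5 to gd14.5, and *Tpbpa* -0.13 in the WT step from gd14.5 to gd16.5, and *Ugp2* 0.040 in the WT step from gd16.5 to gd19.5, and *Gbe1* -0.054 in the KO step from gd10.5 to gd14.5. With at least 10 counts in every library, the values of opposite sign were *Ugp2* 0.0071 in KO against WT at gd16.5. Without an expression filter, the values of opposite sign were *Ugp2* 0.0011 in the KO step from gd10.5 to gd14.5. With each library left out in turn, lowest to highest values of those with a change of sign follow. For KO against WT at gd10.5 the ranges were *Gjb5* -0.18 to 0.29, *Gys1* -0.067 to 0.071, *Tpbpa* -1.07 to 1.87, *Tpbpb* -1.20 to 2.81, *Pcdh12* -0.22 to 0.40, *Pygl* -0.12 to 0.24, *Gbe1* -0.12 to 0.065 and *Ugp2* -0.16 to 0.051. For KO against WT at gd14.5 the ranges were *Aldh1a3* -0.19 to 0.34, *Pcdh12* -0.18 to 0.048, *Gbe1* -0.066 to 0.020 and *Tpbpa* -0.13 to 0.0099. For KO against WT at gd16.5 the ranges were *Gjb5* -0.16 to 0.16, *Gbe1* -0.11 to 0.063, *Ugp2* -0.035 to 0.038 and *Pcdh12* -0.23 to 0.075. For KO against WT at gd19.5 the ranges were *Tpbpb* -0.24 to 0.046 and *Gys1* -0.053 to 0.066. For KO against WT over all stages the ranges were *Gjb5* -0.017 to 0.084, *Tpbpa* -0.14 to 0.47, *Tpbpb* -0.16 to 0.67, *Pcdh12* -0.11 to 0.016 and *Gys1* -0.054 to 0.010. For the WT step from gd10.5 to gd14.5 the ranges were *Gbe1* -0.036 to 0.065. For the WT step from gd14.5 to gd16.5 the ranges were *Tpbpa* -0.094 to 0.15. For the WT step from gd16.5 to gd19.5 the ranges were *Ugp2* -0.095 to 0.00011. For the KO step from gd10.5 to gd14.5 the ranges were *Ugp2* -0.096 to 0.12, *Gjb5* -0.082 to 0.40 and *Gbe1* -0.049 to 0.13. For the KO step from gd14.5 to gd16.5 the ranges were *Pcdh12* -0.34 to 0.025 and *Pygl* -0.19 to 0.064.

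The main tests did not treat replicate numbers as pairs. Deviations of libraries with the same number correlated between -0.457 and 0.407 over 12 pairs, and 5 pairs were over 0.1. These values were not compared with those of differently numbered libraries, so they cannot decide whether the numbers pair samples. With the replicate block, 0 members in place of 1 were past the limit between gd16.5 and gd19.5 in KO, and *Pygl* in the first WT step, *Aldh1a3* in the second WT step and *Ugp2* in the second KO step were also lost.

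Counts over all genes moved more where they were small. The number past the adjusted p was 1 for KO against WT at gd10.5, but 2 with DESeq2, 8 with the Y-linked covariate and 1 to 6 with each library left out. It was 3 for KO against WT at gd14.5, but 243 without an expression filter, 22 with DESeq2, 1 with the replicate block, 6 with the Y-linked covariate, 1 in the fit of all 24 libraries and 2 to 14 with each library left out. It was 1 for KO against WT at gd16.5, but 114 without an expression filter, 172 with DESeq2, 8 with the Y-linked covariate, 2 in the fit of all 24 libraries and 0 to 5 with each library left out. It was 20 for KO against WT at gd19.5, but 8 with library totals, 675 without an expression filter, 203 with DESeq2, 70 with the replicate block, 4 with the Y-linked covariate, 1 in the fit of all 24 libraries, 4 with the fold limit and 1 to 16 with each library left out. It was 3 for KO against WT over all stages, but 1 with at least 10 counts in every library and 17 with DESeq2. It was 0 for the interaction, but 38 with DESeq2 and 0 to 42 with each library left out. It was 10360 for the WT step from gd10.5 to gd14.5, but 4116 with the fold limit. It was 4153 for the WT step from gd14.5 to gd16.5, but 1037 with the fold limit and 2554 to 3715 with each library left out. It was 1476 for the WT step from gd16.5 to gd19.5, but 2437 without an expression filter, 896 in the fit of all 24 libraries, 397 with the fold limit and 544 to 1244 with each library left out. It was 8523 for the KO step from gd10.5 to gd14.5, but 3460 with the fold limit. It was 3226 for the KO step from gd14.5 to gd16.5, but 6178 with library totals, 1391 with the fold limit and 1389 to 5259 with each library left out. It was 229 for the KO step from gd16.5 to gd19.5, but 1361 with library totals, 717 without an expression filter, 1188 with DESeq2, 17 with the replicate block, 1154 in the fit of all 24 libraries, 128 with the fold limit and 0 to 1640 with each library left out. Depth did not limit the members, whose lowest count in a library was 388.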
